A study of Rattus norvegicus with 12 samples.

Results

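The comparison described here sets OC1 cells given siRNA 1928 against OC1 cells given a control siRNA. Its members are the 4 libraries whose column names carry the code 1928 and the 4 whose names carry NC, replicates A to D of each, which makes 8 of the 12 libraries of the series. The labels give OC1 as a line of cochlear sensory epithelium from the rat, name Bcl-2 as the target of siRNA 1928, call the control cells WT, and state that all cells were grown in serum-containing medium and transfected by lipofection. Their treatment tag reads plasmid transfection for every sample, while the protocol and the descriptions speak of siRNA. The name resembles that of HEI-OC1, which is a mouse line. Whether both are the same is not settled by the labels or the table, and if they are, mouse reads were counted on rat genes, with an effect on the counts that was not measured. The other 4 libraries received siRNA 1423, a second siRNA against Bcl-2, and enter below only as a reference. Nothing in the labels says that replicates came from separate cultures, so the p-values measure only the spread between these libraries, which may be technical.

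Bcl-2 sits in the outer mitochondrial membrane and the endoplasmic reticulum, where it binds and restrains the pro-apoptotic members of its own family, and it also binds the autophagy protein Beclin 1. An siRNA is a short RNA duplex, one strand of which is loaded into an Argonaute protein and directs cleavage of mRNA with a fully matching site. The same loaded strand can also lower mRNAs that match only its seed, the first bases at its 5′ end, much as a microRNA does, which is why studies commonly use more than one siRNA against a target. The question for this comparison is which transcripts differed in cells given this siRNA, and by how much.

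Poly(A) RNA was sequenced with a strand-specific protocol, and the deposited table holds expected counts (estimated read counts) for 23978 rat Ensembl gene IDs. The table does not pair IDs with symbols, and none of the IDs was found in the reference table of rat genes. The level of Bcl2 and the markers of the labelled cell type are therefore not analysed here, and no library was checked against its label by its target. Genes are described by direction, size of change and abundance, and 4 are given by ID: in each direction, the most changed gene that averaged at least 10 CPM (counts per 1000000), and the most changed that averaged from 1 CPM to under 10 CPM. All means are over the 8 libraries, with CPM scaled by trimmed means of M values (TMM), and each of the 4 had to pass the test with all 4 libraries of siRNA 1928 on one side of all 4 control libraries.

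Library totals ran from 15671546 to 22726532 expected counts with siRNA 1928 and from 17161984 to 23247593 in the control group. Correlations of log2 CPM were 0.99328 to 0.99495 for the 12 pairs of libraries within a group and 0.98613 to 0.98931 for the 16 pairs between groups. Every pair within a group differed by more than the sampling noise of its counts (chi-square per gene of 1.99 to 5.93), so none was a copy of another. Each library was counted as 1 sample, although a spread of this kind can be technical. Among genes at 10 CPM or more, replicates had a median SD of log2 CPM of 0.0644 for control and 0.0604 for siRNA 1928.

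Close to equal numbers of genes were higher and lower with siRNA 1928 once the libraries were scaled by TMM. Of 12731 genes that passed the low-count filter, 5752 changed (45.2%), of which 2780 rose (21.8%) and 2972 fell (23.3%) at an adjusted p under 0.05 (edgeR quasi-likelihood test, Benjamini-Hochberg). Most of these changes were small. The median log2 fold change was 0.25 among genes that rose and -0.25 among those that fell, and the 95th percentile of the risers was 0.85. Only 715 genes, or 5.62% of those tested, were called with a change of at least 1.5-fold, and 148 (1.16%) with at least 2-fold. Over all tested genes the log2 fold changes had a median of 0.0034, and 90% of them lay between -0.48 and 0.47.

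**Figure D1:**
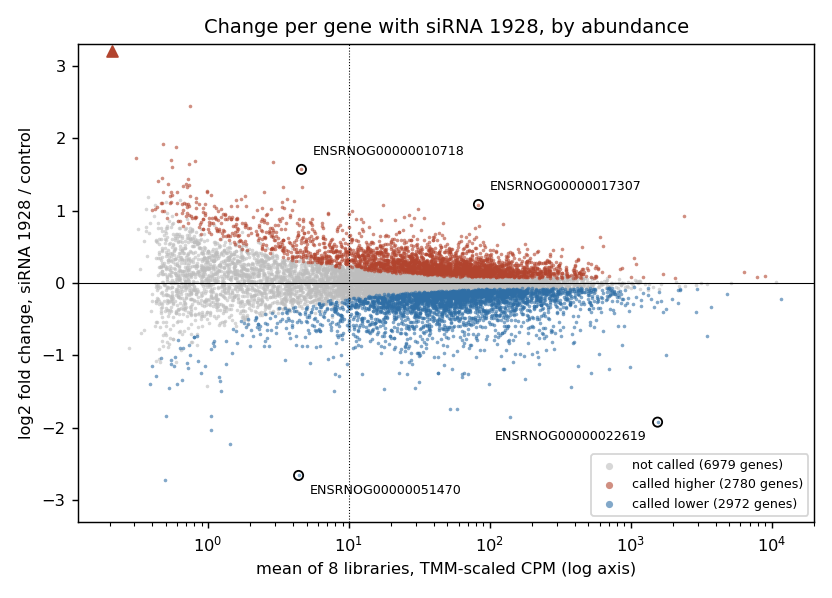
Log2 fold change of siRNA 1928 over control for each of the 12731 tested genes (vertical axis) against its mean TMM-scaled CPM over 8 libraries (horizontal log axis); red and blue mark genes called higher and lower, grey those not called, circles the 4 genes given by ID, the dotted line 10 CPM, and the triangle 1 gene beyond the upper limit of 3.2. Right of the dotted line the large changes lie mostly below 0, and left of it mostly above.

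A test at adjusted p under 0.05 against no change does not say that a change is large. The genes were therefore also tested against a minimum fold with edgeR's glmTreat, a test chosen after the results were seen. Against 1.2-fold, 1211 genes passed (9.51%), 477 higher and 734 lower. Against 1.5-fold, 185 passed (1.45%), 35 higher and 150 lower. Of the 150 lower genes, 137 had a mean of 10 CPM or more, as did 20 of the 35 higher genes and 9572 of all 12731 tested genes. The decreases thus outnumbered the increases at both limits with TMM, while with library size alone 719 genes were higher and 574 lower at 1.2-fold and 41 and 108 at 1.5-fold. In this test the side with more genes depended on the scaling at 1.2-fold and did not at 1.5-fold. For genes called against no change with an estimate of at least 1.5-fold, it did depend on the scaling. Of these, 335 were higher and 380 lower with TMM, against 411 higher and 290 lower with library size alone.

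The intervals show how many genes were held close to their control level. For 6984 genes (54.9%) the 95% interval of the fold change lay wholly within 1.25-fold in either direction, and 2391 of these were nevertheless called as changed. Such narrow intervals were had by 70% of the 9572 genes at 10 CPM or more and by 8.86% of the 3159 genes under 10 CPM. Of the 6979 genes that did not pass the test, 2386 had an interval that reached beyond 1.25-fold, so that a change of that size is not excluded in them.

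The scaling moved every gene by nearly the same amount. TMM factors were 1.03 ± 0.00474 for the 1928 libraries and 0.988 ± 0.00426 for the controls (SD, n = 4 each; exact two-sided permutation p = 0.0286, the smallest this design allows, and 0.0714 after adjustment over 5 library measures). Every factor with siRNA 1928 was above every control factor. With library size alone each log2 fold change was higher by about 0.0565, with 1st and 99th percentiles of 0.0554 and 0.0569, and the median over all genes went from 0.0034 to 0.06. That is a shift of about the same size as the median SD between replicates.

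This small shift altered the balance of calls. With library size alone 6005 genes were called (47.2%), 3868 higher (30.4%) and 2137 lower (16.8%), so 64.4% of the calls were increases, against 48.3% with TMM. All 2780 genes higher with TMM were also higher with library size alone. Of the 2972 lower with TMM, 2137 stayed called and lower, and the other 835 lost the call. The median log2 fold change of these 835 was -0.14 with TMM and -0.08 with library size alone. Another 1088 genes were called higher with library size alone and not with TMM, with medians of 0.09 (TMM) and 0.14 (library size alone). In these 2 fits 0 genes were called in opposite directions, and 4917 were called in the same direction by both. A lack of reversals was fixed by the size of the shift, about 0.0565, since the smallest called decrease with TMM was -0.0591. Which scaling is nearer to the amounts of RNA per cell was not tested, since the table holds no external standard.

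**Figure D2:**
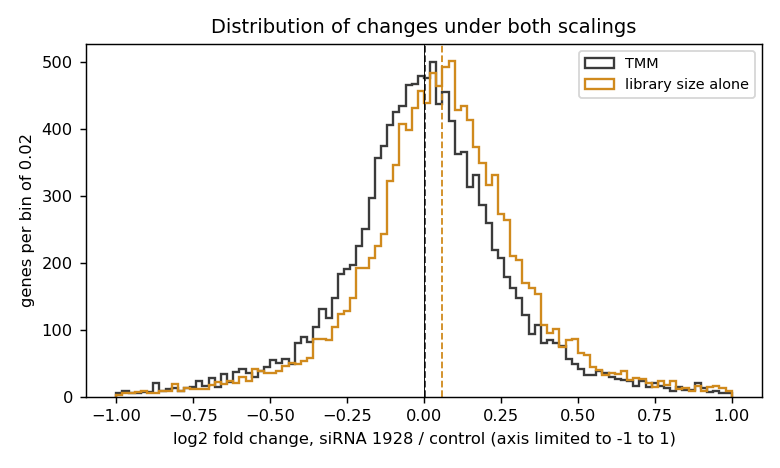
Number of genes per bin of 0.02 (vertical axis) by log2 fold change of siRNA 1928 over control (horizontal axis, limited to -1 to 1), with TMM in black and library size alone in orange; dashed lines are the medians over 12731 genes. The orange curve is the black one moved to the right, with medians of 0.06 and 0.0034.

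Direction went with abundance. Below 1 CPM, 75 genes rose and 26 fell. From 1 CPM to under 10 CPM, 426 rose and 206 fell, which made 67.4% of the calls increases. From 10 CPM to under 100 CPM the numbers were 1704 and 1834 (48.2% increases), from 100 CPM to under 1000 CPM 565 and 878 (39.2%), and among the 64 genes at 1000 CPM or more 10 rose and 28 fell (26.3%). With library size alone the same 5 classes gave 79.8%, 76.8%, 64.6%, 57.3% and 46.3% increases among the calls. The share of increases thus fell from each class to the next with either scaling, while the class in which decreases first outnumbered increases moved from 10 to 100 CPM with TMM to 1000 CPM or more with library size alone.

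The median over all tested genes of a class, called or not, followed the same order. With TMM it was 0.14 under 1 CPM, 0.07 from 1 to 10 CPM, -0.0023 from 10 to 100 CPM, -0.03 from 100 to 1000 CPM and -0.06 at 1000 CPM or more. The precision differed widely between these classes. The scarcest class had a median SE of 0.344 and the most abundant one of 0.0287 on the log2 scale, and the share of genes called was 13.4%, 26.3%, 49.4%, 61.4% and 59.4% from the scarcest class up. Scarce genes therefore had to change far to be called. Called increases had a median of 1.09 under 1 CPM and 0.16 from 100 to 1000 CPM. The part of library depth and of the low-count filter in this order was not tested.

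**Figure D3:**
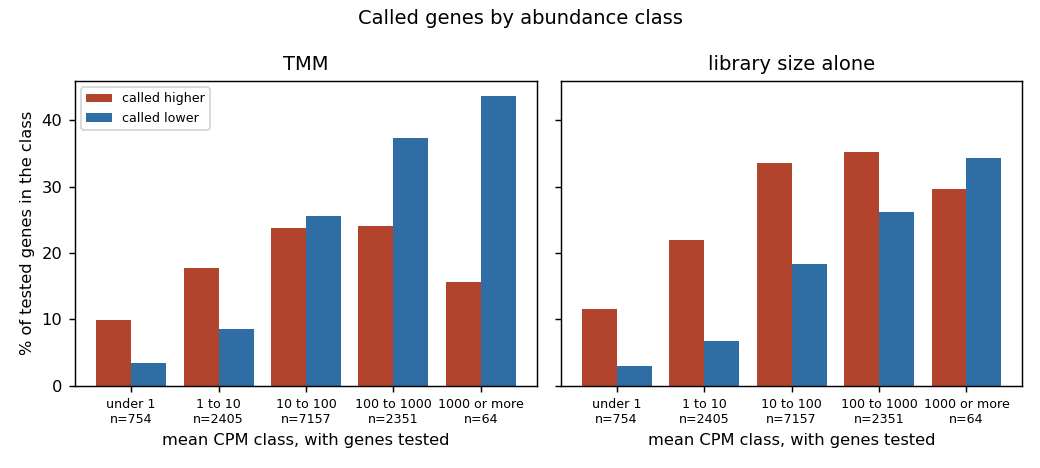
Share of the tested genes in each class of mean CPM that were called higher (red) or lower (blue) with siRNA 1928, with TMM at left and library size alone at right; n is the number of genes tested in the class. From 100 to 1000 CPM 24.0% of genes were higher with TMM and 35.3% with library size alone.

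Among large changes, decreases outnumbered increases in abundant genes and increases outnumbered decreases in scarce ones. At 10 CPM or more, decreases of at least 1.5-fold numbered 279 and increases 70, and at 2-fold there were 40 decreases and 3 increases. Under 10 CPM the numbers were 101 and 265 at 1.5-fold, and 35 and 70 at 2-fold. Of these 70 increases 46 averaged under 1 CPM, as did 18 of the 35 decreases. With the alternative filter, a mean of 1 CPM or more, 14 decreases and 22 increases of at least 2-fold were left under 10 CPM. As a share of the genes tested in each range, decreases of at least 1.5-fold were about as frequent at 10 CPM or more (2.91% of 9572) as under it (3.2% of 3159), while increases of that size made up 0.731% and 8.39%. At 2-fold, decreases made up 0.418% and 1.11%, and increases 0.0313% and 2.22%. With library size alone there were 208 decreases and 99 increases of at least 1.5-fold at 10 CPM or more, and 82 and 312 under 10 CPM, so the larger side was the same in both ranges. The limit of 10 CPM was known from earlier results of these data.

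The libraries of siRNA 1928 resembled each other in these groups. For the 40 abundant genes that fell at least 2-fold, the median log2 ratio to the control mean was -1.21 in replicate A, -1.16 in B, -1.18 in C and -1.23 in D, and each of the 40 was below the control mean in every one of the 4. The 40 genes together held 0.409% to 0.416% of the counts in the libraries of siRNA 1928. In the control libraries they held 0.983% to 1.03%. For the 70 abundant genes that rose at least 1.5-fold the 4 medians were 0.72, 0.69, 0.63 and 0.68. For the 265 scarce genes that rose at least 1.5-fold they were 0.85, 0.81, 0.76 and 0.79, with 263 to 265 of the genes above the control mean in each library. The genes were chosen on these same libraries, so these values describe the response and do not test it.

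A reading in libraries that had no part in the calls came from replicates A and B against C and D, a division chosen with its earlier results known. The labels do not say that these were separate cultures, so the reading may only repeat a measurement. Genes were called in one pair of letters and read in the other, each with its own controls; only the low-count filter and the mean CPM used all libraries. Of the 41 genes at 10 CPM or more that were called at least 2-fold lower in A and B, all 41 were called lower in C and D, with a median of -1.21 against -1.18 where they had been chosen. In the reverse direction this held for 43 of 43, with medians of -1.16 and -1.21. Over all tested genes, 19.8% were called lower in C and D and 18.7% in A and B. Shares over all tested genes include those under 10 CPM, which were called less often in the fit of all libraries. Abundant genes that rose kept their size nearly as well. The 86 called at least 1.5-fold higher in A and B had a median of 0.69 there and 0.59 in C and D, where 83 were called higher, against 17.8% of all tested genes. Calls of any size were repeated less often. Of 2061 genes called higher in A and B, 73.2% were called higher in C and D, and of 2387 called lower, 78.5% were called lower. In the reverse direction the shares were 66.6% of 2263 and 74.3% of 2520.

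Large increases of scarce genes were smaller when read in other libraries. The 77 genes under 10 CPM called at least 2-fold higher in A and B had a median of 1.28 there and 0.77 in C and D, where 70 of them were above 0 and 29 were called higher. In the reverse direction 80 genes went from 1.26 to 0.72, with 76 above 0 and 28 called, against 16.2% of all tested genes called higher in A and B. Scarce genes that fell at least 2-fold did likewise, from -1.38 to -0.92 for 39 genes chosen in A and B and from -1.38 to -0.82 for 33 chosen in C and D. Their direction held in 35 of 39 and 28 of 33. Over the genes at 10 CPM or more, which are not independent replicates, the changes in both pairs of letters had a Pearson r of 0.905, and over those under 10 CPM 0.520.

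**Figure D4:**
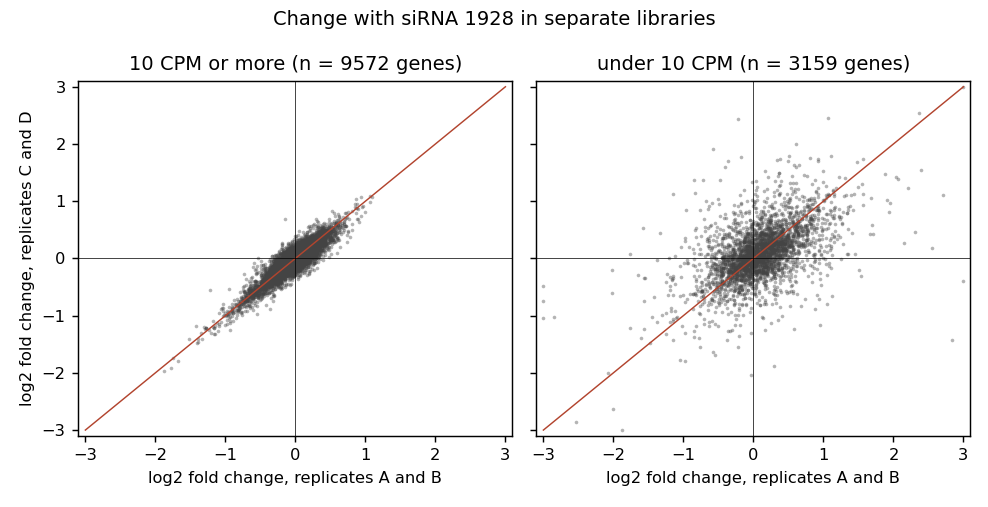
Log2 fold change of siRNA 1928 over control in replicates A and B (horizontal axis) and in replicates C and D (vertical axis), 1 point per gene, for 9572 genes at 10 CPM or more (left) and 3159 under 10 CPM (right); the red line marks equal changes, and 6 genes beyond 3 are drawn at that limit. Abundant genes lie close to the line, and scarce genes scatter widely around it.

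The counts that moved were spread over many genes. Genes that fell held 39.4 ± 0.118% of the counts in control libraries and 33.7 ± 0.141% with siRNA 1928 (SD, n = 4 each). Genes that rose went from 20.6 ± 0.117% to 24.7 ± 0.130%, and those not called from 40% ± 0.120 to 41.5 ± 0.0532%. These are shares of the raw library totals, over groups of genes set by the calls with TMM. Summed over genes, 5.80% of the counts moved from genes with a lower share to genes with a higher one. The genes with the largest losses were fewer than those with the largest gains: 184 genes made up 50% of the loss and 619 made up 50% of the gain. In the gene with the largest loss the share fell by 0.175% of all counts, and the largest single gain was 0.159%. The 28 genes at 1000 CPM or more that fell went from 6.99% to 5.90% of the counts, while the 265 scarce genes that rose at least 1.5-fold went only from 0.0466% to 0.0847%. The 10 most abundant genes of each library held 6.69 ± 0.0396% in the 1928 libraries and 6.69 ± 0.0873% in the controls (exact two-sided permutation p = 0.943, also 0.943 after adjustment).

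Few genes were detected in only one of the groups. Among all 23978 IDs, 13 had 10 or more expected counts in all 4 libraries of siRNA 1928 and in no control library, and the reverse held for 1. Genes at 0 in all 4 controls and above 0 in all 4 libraries of siRNA 1928 numbered 7, and the reverse 8. None of these 15 had more than 11 counts summed over a group, so they lie near the limit of detection. The largest fitted increase of the comparison, a log2 value of 6.19 (SE 2.03, adjusted p = 0.0179 by edgeR), belonged to a gene at 0 in all 4 controls and in replicates B and D of siRNA 1928. It had 17.2 expected counts in replicate A and 21.3 in replicate C. With a floor of 3 counts set for the control group, its summed level with siRNA 1928 was 13.2-fold higher. That value leaves out the spread between the libraries of siRNA 1928 and is no lower limit of the change, and the groups overlapped. The second largest fitted increase was 2.44.

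Among the abundant genes, the deepest decrease was that of ENSRNOG00000022619. Its level was 2273, 2339, 2582 and 2607 CPM in control replicates A to D. With siRNA 1928 it was 626.9, 632.9, 652.3 and 678.5 CPM. All 4 libraries lay far below the lowest control, and the gene went from 2450 ± 169 to 648 ± 23.3 CPM (SD, n = 4 each), a 3.78-fold decrease. Its log2 fold change was -1.92 (SE 0.0458, adjusted p = 7.65e-19 by edgeR) with TMM and -1.86 with library size alone. This gene had the largest single loss of counts in the comparison. With siRNA 1423 it stood at 2368, 2461, 2673 and 2703 CPM, a range that overlapped the control range. The difference between the siRNAs was -1.98 on the log2 scale (SE 0.0458, adjusted p = 8.39e-19 by edgeR). The table gives fractional counts for this gene in all 8 libraries, as estimates can where reads are divided between genes. Whether and how reads were divided is not stated in the labels.

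ENSRNOG00000017307 had the highest increase among the abundant genes. Control replicates A to D had 53.66, 56.55, 52.11 and 50.39 CPM. Those of siRNA 1928 had 115.2, 116.2, 110 and 109.7 CPM. The lowest library of siRNA 1928 thus stood well above the highest control, a 2.12-fold increase with a log2 value of 1.08 (SE 0.0421, 95% interval 1.00 to 1.17, adjusted p = 3.55e-15 by edgeR). With siRNA 1423 the levels were between both groups, at 67.75 to 76.64 CPM. The gene was also called higher with that siRNA, at a log2 value of 0.445 (adjusted p = 1.56e-07 by edgeR). Its counts were also fractional in all 8 libraries.

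In the range from 1 CPM to under 10 CPM, ENSRNOG00000010718 had the highest increase among the called genes whose groups did not overlap. It had 2.53, 2.685, 2.097 and 2.009 CPM in control replicates A to D, which corresponds to 34 to 56 expected counts. With siRNA 1928 it had 8.331, 5.945, 7.013 and 6.197 CPM, or 96 to 187 counts. The groups were clearly apart, although replicate A of siRNA 1928 was higher than the other libraries of its group. The increase was 2.97-fold, with a log2 value of 1.57 (SE 0.144, adjusted p = 8.57e-09 by edgeR). With siRNA 1423 this gene had 2.813 to 3.643 CPM, above every control library. It was also called higher there, with a log2 value of 0.476 (adjusted p = 0.0389 by edgeR).

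Among the same kind of genes, ENSRNOG00000051470 fell most in that range, with a much wider spread. Control replicates A to D had 5.692, 9.825, 9.741 and 5.376 CPM. With siRNA 1928 they had 3.386, 0.3715, 0.7314 and 0 CPM. The groups did not overlap, but replicate A of siRNA 1928 alone held 76.2 of the counts in its group, against 5.78, 17.2 and 0 in B, C and D. The log2 fold change was -2.66 (SE 0.475, 95% interval -3.64 to -1.67, adjusted p = 8.87e-05 by edgeR). It was -4.26 without that replicate and -1.87 with replicates A and B alone, and the gene passed the test in both cases. Fractional counts in 7 of the 8 libraries add an uncertainty to it that was not measured.

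**Figure D5:**
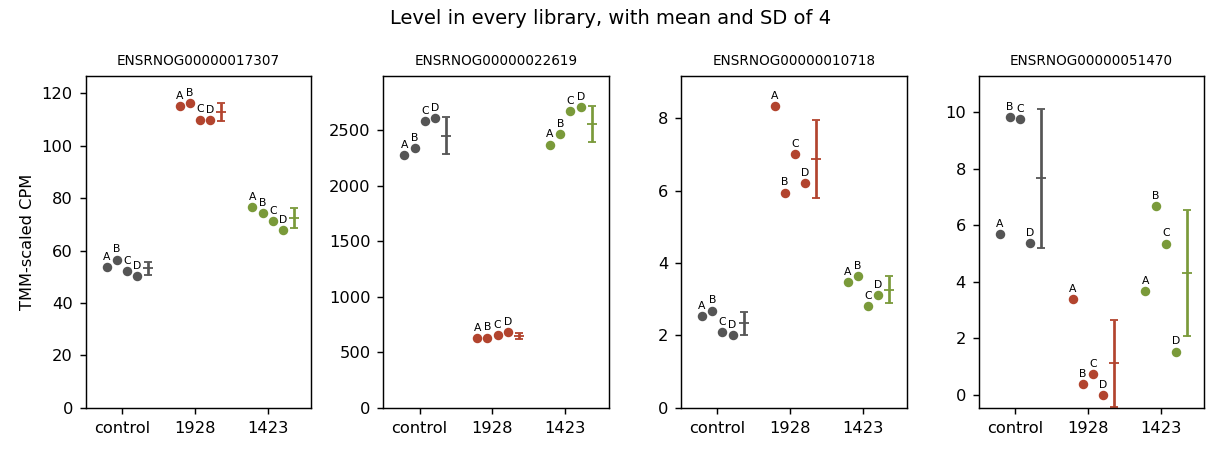
TMM-scaled CPM (vertical axes from 0, or slightly below where an SD bar needs it) of the 4 genes given by ID in every control, siRNA 1928 and siRNA 1423 library, with letters naming the replicates and bars the mean and SD of 4. ENSRNOG00000022619 is at 626.9 to 678.5 CPM with siRNA 1928 and at 2273 CPM or more in the 8 other libraries.

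The genes ranked next to these showed a similar asymmetry. The 12 most increased of 1894 eligible genes at 10 CPM or more had log2 fold changes of 0.88 to 1.08, and 3 of them reached 2-fold. The 12 most decreased of 2274 had -1.92 to -1.26, and all 12 reached 2-fold. The next gene in either direction stood at 0.87 and -1.25, so neither group was set off by a gap. Standard errors were at most 0.102 and 0.0784, and with library size alone all 24 passed the test, at 0.93 to 1.14 and -1.86 to -1.20. One of the 12 increased genes was far more abundant than the rest, at a mean of 2404 CPM. It went from 1660 ± 86.6 CPM in the control group to 3148 ± 108 CPM with siRNA 1928 and was at 1654 ± 43.5 CPM with siRNA 1423 (SD, n = 4 each). Groups that do not overlap were required here and were seen in 39.4% of all tested genes, with siRNA 1928 above control in 19.1% and below it in 20.3%.

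Side by side with siRNA 1423, which shares the control libraries, the 24 genes had smaller fold changes with the other siRNA. The 12 decreased genes had log2 fold changes of -0.69 to 0.12 with siRNA 1423, with a median of -0.03, and 4 of them were also called lower, as were 11.5% of all tested genes. The 12 increased genes had -0.16 to 0.53, with a median of 0.26, and 6 were also called higher, as were 11.3% of all tested genes. All 24 differed between the siRNAs, each moving further with siRNA 1928, by 0.49 to 1.04 for the increases and -1.98 to -0.74 for the decreases; 44.3% of all tested genes differed between the siRNAs. Because the 24 were picked for extreme values with siRNA 1928, a larger change with it is favored by the choice. The depth of the Bcl2 knockdown with either siRNA is not among the values analysed here.

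Decimals in the counts can arise where estimation divides reads, but the labels do not say what gave them here. Whole counts do not show that no reads were divided. Counts were whole in all 8 libraries for 2003 tested genes (15.7%), fractional in some for 7840 and in all for 2888 (22.7%). Genes with whole counts were called in 33.4% of cases, 436 higher and 234 lower. Those fractional in some libraries were called in 49.4%, 1846 higher and 2026 lower. Those fractional throughout were called in 41.9%, 498 higher and 712 lower. The share called thus did not rise steadily with fractional counts. Genes with whole counts were much scarcer, with a median of 4.21 CPM against 41.1 CPM and 44.8 CPM. Of the 73 increases of at least 2-fold, 52 came from genes with whole counts, 17 from genes fractional in some libraries and 4 from genes fractional throughout. Of the 75 decreases, the numbers were 21, 36 and 18. How abundance and fractional counts each bear on these numbers was not tested.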

How the data were processed

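The authors deposited expected counts, that is read counts estimated for each Ensembl gene; the unit was read from the values, 71.3% of which were whole to within 1e-06. Build mRatBN7.2 and the tools DESeq2 1.24.0, fastp 0.21.0 and bcl2fastq 2.20 are named in the submitters' processing notes; no source used here gives the aligner, the counting program or the annotation. Samples were grouped by the siRNA code in their titles. Counts were rounded and filtered with filterByExpr of edgeR (minimum count 10, minimum total 15, leaving 12731 genes and 99.95% of counts). They were tested with edgeR 4.0.16 (quasi-likelihood, R 4.3.3, limma 3.58.1) in 1 fit of all 12 libraries with 1 mean per group. The fit was also run on simulated counts with few changed genes, balanced in direction, and the same spread setting for all genes. These settings differ from the data, so the run does not test the fit or the scaling under changes as many as here. P-values were adjusted over all tested genes. CPM were computed with TMM or library size, log2 CPM with a prior count of 2, and standard errors from the F statistic. Library measures were compared by exact permutation tests. The alternatives included library size alone, DESeq2 1.42.0, limma voom, other filters, a replicate block and each of the 8 libraries left out. Figures used matplotlib 3.10.9.

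The members, lists and limits were chosen with earlier results of these data known. The rule for naming genes asked for symbols, an adjusted p under 0.05 and no overlap between groups, and ranked genes by log2 fold change at 10 CPM or more and from 1 CPM to under 10 CPM. Without symbols it was used on IDs, and only the first gene of each direction and range is printed. Its parts on Bcl2 and on the smallest p-values, and 37 gene lists, could not be applied. Intervals cover the spread between libraries.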

Additional observations from a re-analysis of the deposited data

Results flagged for a closer look

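The 11247 genes too scarce for the filter were not compared. Together they took 0.0521% of the counts on average in cells given siRNA 1928 and 0.0434% in control cells. Each of the 4 libraries of siRNA 1928, at 0.0496% to 0.0549%, lay above each control library, at 0.0407% to 0.0484% (exact two-sided permutation p = 0.0286, adjusted p = 0.0714 over 5 library measures). Library totals of the groups overlapped. In 18 groups of 4 values, the library measures and the 4 genes given by ID, 0 libraries stood far enough from the others of their group to be picked out; chance picks out about 1 in 20.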

How the results depend on the processing

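The counts of genes changed, higher and lower with siRNA 1928, of genes past 1.5-fold in either direction, of genes at least 2-fold lower, and of genes differing between the siRNAs stayed within 1.5 times their value in the 17 alternatives run (8 libraries only gives no value for the last). The exceptions concerned genes at least 2-fold higher, 73 in the report: 140 without the low-count filter, where 18290 genes were tested, and 26 with a mean of 1 CPM or more. Genes at least 2-fold lower, 75 in the report, numbered 103 and 52 in the same alternatives. The side with more genes at 2-fold thus depended on the filter. It also depended on the scaling, with 89 genes higher and 62 lower with library size alone. Small differences between methods changed it too: DESeq2 gave 69 higher and 68 lower, and the replicate block 74 and 75. Leaving out 1 library gave 5210 to 5497 changed genes. The median log2 fold change, 0.0034 in the report, was 0.0599 with library size alone, 0 without the filter, 0.00667 with 8 libraries only and -0.00115 with replicates A and B only, and ran from 0.000176 to 0.00577 when 1 library was left out. DESeq2 called 5385 genes and limma voom 5777, with 48.4% and 48.5% higher. None of these fits called a gene in the direction opposite to the report. The 32 highest and lowest genes by ID rank kept direction and call in every alternative that tested them; for ENSRNOG00000051470 the log2 fold change ran from -4.26 to -1.87. The replicate block, with the letters A to D as a term, gave 6174 changed genes, 5735 of them changed in the same direction in the report. Deviations from the group means of same-lettered libraries correlated at 0.037, 0.13, 0.11 and 0.078, all positive. Of the 4 libraries of siRNA 1928, 2 correlated best with the control of their own letter. With so few letters this count cannot decide whether libraries with the same letter share something. The main fit had no term for the letters because the labels do not say what they share. Counts within gene lists were not run under library size alone or the replicate block, since no list could be assigned. Of the 3159 genes under 10 CPM, 2426 did not pass the test; the part of depth in this was not tested.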
